A study of Rattus norvegicus with 12 samples.

Results

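The interferon response genes examined here are 39 genes chosen by name as known targets, regulators or effectors of interferon signalling, by a rule that uses no measured value. For each gene the probe set annotated to its symbol was read, and the brightest was taken where several carried the symbol. Probe sets of their own were listed for 37 of the 39 genes, among 14217 genes represented in the same way, and none was listed for Gbp5 or Xaf1. RNA of rat liver was hybridised to 12 Affymetrix Rat Expression 230 2.0 arrays, which report the abundance of each transcript as a log2 intensity. Long Evans Cinnamon rats (LEC/Crj), an inbred strain with a defective Atp7b copper transporter, accumulate hepatic copper and develop hepatitis and liver tumors. The LEC groups were 4 arrays of liver tumor at 67 weeks, 4 arrays of adjacent nontumor liver at 67 weeks, and 1 array each of liver at 4, 26 and 39 weeks. Long Evans Agouti (LEA) rats, a related strain without the disease, served as the control with 1 array of liver at 67 weeks. All rats were labelled male and were kept free of specific pathogens and viral antibodies, and no treatment was labelled for any group. Each tumor or nontumor array held mixed RNA of 2 tumor and nontumor pairs drawn from 8 paired specimens. How many rats entered the 4 lone pools, and whether a rat entered more than 1 pool, was not given in the sources used here, so the spread between arrays may understate the spread between rats.

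Type I and type III interferons signal through JAK1 and TYK2 to a complex that holds STAT2 and IRF9 and binds the interferon-stimulated response element (ISRE) of target promoters. Interferon gamma signals through JAK1 and JAK2 to the gamma-activated site (GAS) of its target promoters and induces IRF1, IRF8, the guanylate-binding and immunity-related GTPases and the antigen-processing machinery. In liver, hepatocytes, Kupffer cells, sinusoidal endothelium and infiltrating leukocytes can all respond, and USP18 and the SOCS proteins limit the response.

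Promoter sequences from 250 bases before to 50 bases after the transcription start were matched for 30 of the 37 measured genes in the RefSeq annotation of rat build GRCr8, and none was matched for Dhx58, Ifit1, Ifit2, Mx2, Isg15, Usp18 or Rtp4. The letters of the ISRE core, GAAA followed after 2 bases by a second GAAA, on either strand, stood in 19 of the 30 promoters (63.3%), against 3.92% of all 33469 promoters of that length. The letters of the GAS, TTCNNNGAA, which read the same on both strands, stood in 12 of the 30 (40.0%), against 8.87% of all promoters. The first set of stretches shows genes that were higher in tumor than in nontumor liver, and capitals mark the matched letters throughout. Irf1 at chr10:38417778-38417816 (plus strand), Irf8 at chr19:65699089-65699146 (plus strand) and Irf9 at chr15:33065722-33065760 (plus strand) had GAS letters only, and Irf8 had 2 such matches. Gbp2 at chr2:234005681-234005720 (plus strand) and Isg20 at chr1:142239952-142239991 (plus strand) had ISRE letters only.
Irf1: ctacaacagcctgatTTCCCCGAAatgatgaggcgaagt
Irf8: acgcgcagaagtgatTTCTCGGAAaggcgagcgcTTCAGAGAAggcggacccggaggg
Irf9: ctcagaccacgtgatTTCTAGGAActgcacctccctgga
Gbp2: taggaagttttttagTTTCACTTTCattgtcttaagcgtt
Isg20: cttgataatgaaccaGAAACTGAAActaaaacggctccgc

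The second set shows promoters in which both kinds of letters lay side by side, with the GAS letters first. In Ifitm3, which was higher in tumor and is not shown, they also lay side by side, with the ISRE core first. Parp14 at chr11:78408032-78408082 (plus strand) was higher in tumor, and Igtp at chr10:42874918-42874968 (plus strand), Irgm at chr10:33742588-33742638 (minus strand) and Bst2 at chr16:18255068-18255119 (minus strand) were lower. In Parp14, Igtp and Irgm the GAS letters were followed after 2 bases by the ISRE core. That arrangement, which was looked for after the sequences had been read, occurred in 4 of the 33469 promoters, namely these 3 and Irgm2. In Bst2 the GAS letters overlapped the first of 2 overlapping ISRE cores.
Parp14: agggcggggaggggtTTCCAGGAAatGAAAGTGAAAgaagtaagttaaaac
Igtp: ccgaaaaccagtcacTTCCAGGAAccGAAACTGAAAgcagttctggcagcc
Irgm: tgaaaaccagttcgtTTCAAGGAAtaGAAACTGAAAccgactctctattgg
Bst2: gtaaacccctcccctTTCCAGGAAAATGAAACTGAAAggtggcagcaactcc

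The third set shows genes that were not called different between tumor and nontumor liver but read lowest in the LEC pools at 26 and 39 weeks. Ifit3 lies at chr1:241527267-241527306 (plus strand), Irf7 at chr1:205800068-205800107 (minus strand) and Oas1a at chr12:41330410-41330455 (plus strand), and the Oas1a stretch holds 2 overlapping ISRE cores.
Ifit3: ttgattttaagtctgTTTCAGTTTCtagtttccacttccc
Irf7: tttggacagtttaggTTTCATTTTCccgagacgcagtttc
Oas1a: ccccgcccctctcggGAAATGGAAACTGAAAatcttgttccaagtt
Matches were also counted by call in tumor, and no difference between these sets of promoters was tested. The ISRE core stood in 7 of 13 matched promoters of genes called higher in tumor, 4 of 5 of genes called lower and 8 of 12 of genes not called. GAS letters stood in 5 of 13, 3 of 5 and 4 of 12 of the same promoters. A match describes the letters and is not evidence of binding.

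Arrays of a group correlated over all probe sets at 0.968 to 0.994 for tumor and 0.975 to 0.993 for nontumor liver. The brightest probe set for bacterial RNA, which liver should not hold, read 5.52 to 5.67 on tumor arrays, 5.88 to 6.01 on nontumor arrays and 6.11 to 6.22 on the 4 lone arrays. Among the 37 genes, Oas1b on the 26-week array, at 5.99, was the single value that did not exceed that level on its own array. The hepatocyte markers averaged 13.35 to 13.60 on nontumor arrays, so the labelled tissue carried its defining transcripts. Sex-linked transcripts separated the arrays against their labels. Xist, the RNA of the inactive X chromosome in female cells, read 5.27 at 26 weeks and 5.67 at 39 weeks, against 11.36 to 13.12 on the other 10 arrays. The Y-linked gene Eif2s3y read 8.90 at 26 weeks and 8.18 at 39 weeks, against 3.65 to 3.81 on the other 10. Other Y-linked genes (Sry, Tspy1 and Uty) did not separate the arrays in that direction. Every value below that rests on the arrays labelled 26 and 39 weeks therefore comes from arrays that also differ from the rest in these transcripts.

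Tumor compared with nontumor liver of the same age showed which interferon response genes differed between the neoplastic tissue and its surroundings. Irf8, Gbp2, Ifit2, Isg20, Mx1 and Irf1 rose most in tumor, by 1.84-fold to 3.01-fold, whereas Usp18, Igtp and Irgm fell most. The 3 canonical genes Isg15, Ifit1 and Irf7 were not called. Among the 37 genes, 16 were higher in tumor (43.2%), 6 were lower (16.2%) and 15 were not called at an adjusted p of 0.05 by limma. Over all 14217 genes, 38.8% were higher and 29.2% were lower, so the share called higher was near that of the array as a whole and the share called lower was below it. The median difference was 0.37 log2 units over the 37 genes and 0.07 over all genes. After a further quantile normalization these medians were 0.09 and -0.04, and with array weights they were 0.23 and 0.05. Individual arrays of the groups did not overlap for 15 of the genes in the higher direction, where 36.1% of all genes did so, and for 4 in the lower direction, where 27.7% did so. Ifih1, Bst2 and Psmb10 were called although their groups overlapped. In bulk tissue a lower number of cells of a type and less RNA per cell cannot be told apart.

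**Figure D1:**
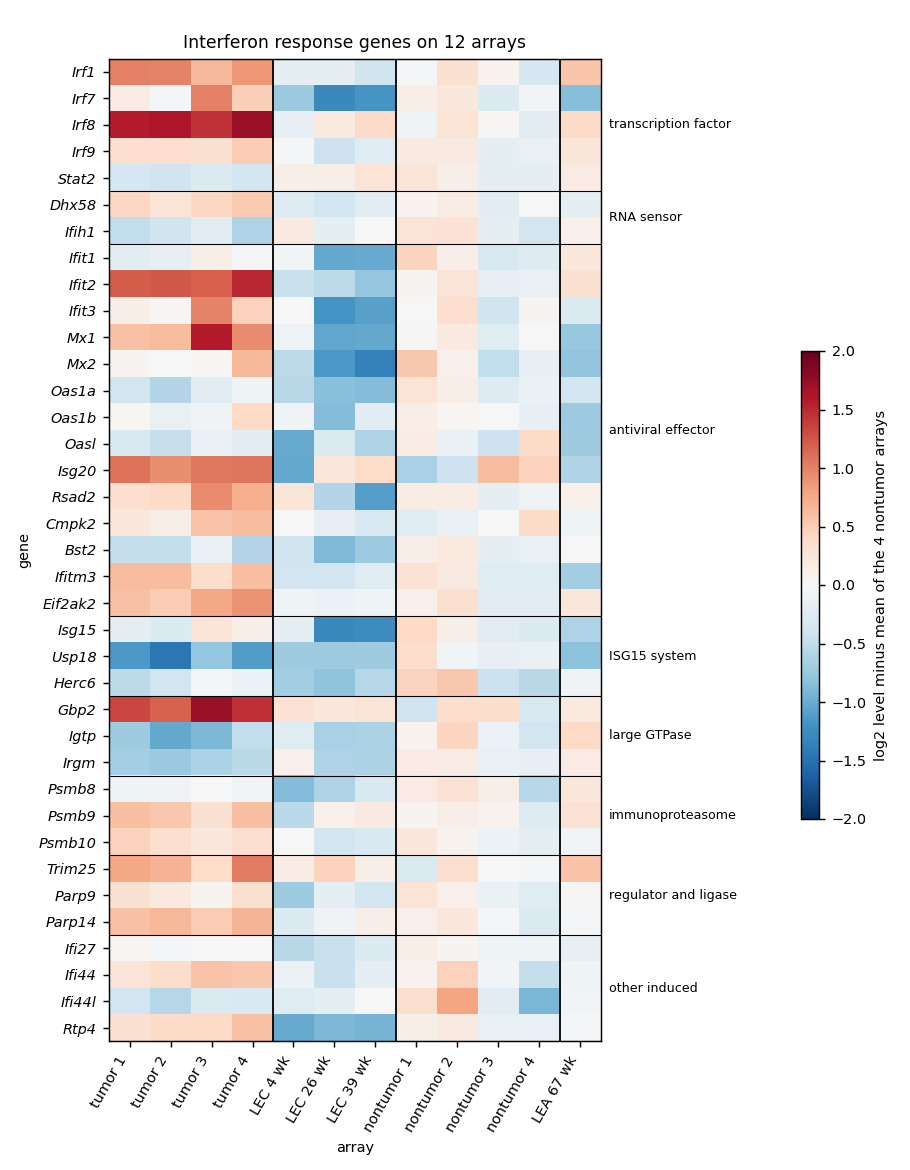
Log2 level of each of the 37 interferon response genes (rows, grouped by role) on each of the 12 arrays (columns), shown as the difference in log2 units from the mean of the 4 nontumor arrays, with red above and blue below that mean. Irf8, Ifit2 and Gbp2 are red on all 4 tumor arrays and Usp18 is blue on them, and the pools at 26 and 39 weeks are blue for Ifit3, Isg15, Irf7 and Mx2.

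The transcription factors of the response diverged. Irf8, an interferon gamma target that directs the myeloid and dendritic cell lineages, read 10.28, 10.33, 10.16 and 10.44 in tumor, against 8.63, 8.99, 8.74 and 8.50 in nontumor liver. All tumor arrays lay more than 1 log2 unit above every nontumor array. The difference was 1.59 ± 0.11 (SE, n = 4 each) with a limma adjusted p of 1e-05. Irf1, a further GAS-driven factor that activates antigen-processing genes, averaged 10.62 ± 0.16 in tumor and 9.74 ± 0.27 in nontumor liver (SD, n = 4 each; difference 0.88, limma adjusted p = 0.00074). Irf9, the DNA-binding subunit of the ISRE-binding complex, read 10.12, 10.11, 10.09 and 10.29 in tumor, against 9.96, 9.96, 9.58 and 9.64 in nontumor liver. It was higher by 0.37 (limma adjusted p = 0.0152), and its second probe set gave 0.51. The Irf9 call was lost after a further quantile normalization or subtraction of array medians. Stat2, its partner in that complex, moved the other way, with 9.88, 9.84, 9.96 and 9.86 in tumor, against 10.50, 10.35, 10.05 and 10.03 in nontumor liver. Its fall by 0.35 (limma adjusted p = 0.0223) was not matched by a second, similarly bright probe set, which gave -0.07 and was not called. Irf7, which amplifies type I interferon production, read 10.98, 10.79, 11.83 and 11.30 in tumor, against 10.95, 11.02, 10.54 and 10.76 in nontumor liver. Tumor arrays 3 and 4 exceeded all nontumor arrays whereas tumor arrays 1 and 2 lay within their range, and the difference of 0.41 ± 0.22 (SE) was not called (limma adjusted p = 0.127).

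The cytosolic RNA sensors moved in opposite directions. Dhx58 (LGP2), which regulates sensing of viral RNA, was higher by 0.40 in tumor (limma adjusted p = 0.00679), with a smaller difference of 0.24 at its dimmest probe set that was not called. Ifih1 (MDA5), which detects long double-stranded RNA, was lower by 0.43 (limma adjusted p = 0.0449), and its call was lost when any of 5 single arrays was left out, namely tumor 1, 2 or 4 or nontumor 1 or 2, where the highest adjusted p was 0.113.

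Of 14 antiviral effectors, 6 rose, Bst2 fell and 7 were not called, and members of a gene family differed in their calls. This count stands beside the 38.8% of all genes called higher and the 29.2% called lower. No difference between a group of these genes and all genes was tested. Ifit2, which binds viral RNA and restrains translation, read 11.21, 11.23, 11.18 and 11.50 in tumor, against 10.05, 10.25, 9.83 and 9.85 in nontumor liver. The groups were apart and the rise was 1.29 ± 0.12 (SE), or 2.44-fold (limma adjusted p = 3.2e-05), with 1.14 at a second probe set. Its chromosome 1 neighbours did not share the call. Ifit1, which recognises RNA caps lacking 2′-O-methylation, read 8.61, 8.66, 8.93 and 8.79 in tumor, against 9.26, 8.96, 8.50 and 8.57 in nontumor liver, a difference of -0.08 ± 0.17 (SE). Ifit3, a partner of Ifit1, read 7.76, 7.67, 8.63 and 8.10 in tumor, against 7.64, 7.97, 7.23 and 7.68 in nontumor liver. The groups overlapped for both genes. Only tumor arrays 3 and 4 exceeded every nontumor array in Ifit3, and the difference of 0.41 ± 0.23 (SE) was not called.

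Mx1, a dynamin-like GTPase that blocks viral replication in the nucleus of rodent cells, read 9.20, 9.26, 10.20 and 9.57 in tumor, against 8.65, 8.81, 8.38 and 8.64 in nontumor liver. Every tumor array exceeded every nontumor array, and the rise was 0.94 ± 0.21 (SE; limma adjusted p = 0.00441). Mx2, its neighbour on chromosome 11, averaged 10.57 ± 0.32 in tumor and 10.38 ± 0.44 in nontumor liver (SD, n = 4 each) and was not called. Isg20, an exonuclease that degrades single-stranded RNA, read 8.39, 8.23, 8.35 and 8.37 in tumor, against 6.65, 6.88, 7.91 and 7.75 in nontumor liver. The tumor arrays were close together while the nontumor arrays split into 2 lower and 2 higher values, and the rise of 1.04 ± 0.27 (SE) had a limma adjusted p of 0.00849. Rsad2 (viperin), an enzyme that makes a chain-terminating nucleotide, read 9.03, 9.08, 9.64 and 9.41 in tumor, against 8.84, 8.85, 8.50 and 8.60 in nontumor liver, a rise of 0.59 (limma adjusted p = 0.00794). Cmpk2, its neighbour on chromosome 6 and a supplier of the nucleotide that viperin uses, differed by 0.38 and was not called, although a dimmer probe set was called at 0.84. Eif2ak2 (PKR), a kinase that halts translation on binding double-stranded RNA, rose by 0.69, and Ifitm3, which blocks viral entry at endosomes, rose by 0.55. Bst2 (tetherin), which holds budding virions at the cell surface, fell by 0.42 (limma adjusted p = 0.0176). The oligoadenylate synthetase genes, whose products activate RNase L, were not called, with differences of -0.31 for Oas1a, 0.06 for Oas1b and -0.28 for Oasl.

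**Figure D2:**
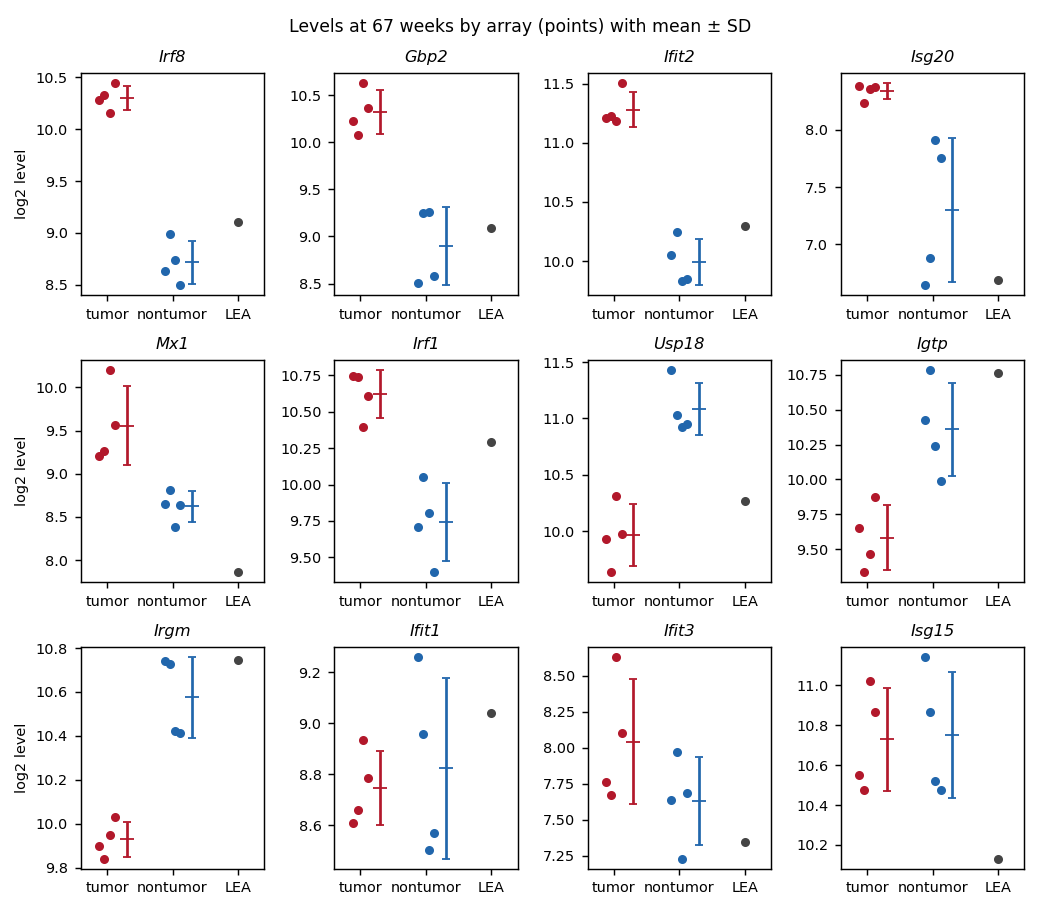
Log2 level (y axis) of 12 interferon response genes on the 4 tumor arrays, the 4 nontumor LEC arrays and the LEA array at 67 weeks, 1 point an array, with bars for mean ± SD of the 4 arrays. Irf8, Gbp2, Ifit2, Isg20, Mx1 and Irf1 lie higher on every tumor array than on any nontumor array, Usp18, Igtp and Irgm lie lower, and Ifit1, Ifit3 and Isg15 overlap.

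The ISG15 system contained the deepest fall. Usp18, the protease that removes ISG15 from proteins and blocks the type I receptor, read 9.93, 9.64, 10.31 and 9.97 in tumor, against 11.43, 11.03, 10.93 and 10.95 in nontumor liver. The groups were apart, and the fall by 1.12 ± 0.16 (SE) corresponded to a level 2.18-fold higher in nontumor liver (limma adjusted p = 0.00037). Isg15, the ubiquitin-like modifier itself, read 10.55, 10.48, 11.02 and 10.87 in tumor, against 11.14, 10.87, 10.52 and 10.48 in nontumor liver. The groups covered almost the same range, with a difference of -0.02 ± 0.18 (SE). Herc6, the ligase that attaches ISG15 in mouse cells, averaged 7.80 ± 0.23 in tumor and 8.07 ± 0.57 in nontumor liver (SD, n = 4 each) and was not called.

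Of the 3 measured guanylate-binding and immunity-related GTPases among the interferon response genes examined here, 1 rose and 2 fell. Gbp2, a guanylate-binding protein that attacks pathogen vacuoles, read 10.23, 10.08, 10.63 and 10.36 in tumor, against 8.51, 9.25, 9.25 and 8.58 in nontumor liver. Its rise of 1.43 ± 0.20 (SE), or 2.69-fold, had a limma adjusted p of 0.00038. The immunity-related GTPases Igtp and Irgm, which act on the same vacuoles in mouse cells, fell by 0.78 and by 0.65 (limma adjusted p = 0.00485 and 0.00062), with no overlap between the groups. A second Igtp probe set gave a larger fall, with a difference of -1.21. These 2 genes carried the paired GAS and ISRE letters shown above, as did Parp14, which was higher in tumor.

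The immunoproteasome subunits, which replace constitutive subunits and alter the peptides offered to T cells, included 2 that rose and 1 that was not called. Over all genes, 38.8% were called higher in tumor and 29.2% lower. Psmb9 read 11.84, 11.78, 11.55 and 11.85 in tumor, against 11.30, 11.39, 11.32 and 10.98 in nontumor liver, a rise of 0.51 ± 0.11 (SE; limma adjusted p = 0.00361). Psmb10 rose by 0.33 with overlapping groups, and its call was lost without tumor array 1 or nontumor array 3. The Psmb10 call was also lost after a further quantile normalization or subtraction of array medians. Psmb8 read 11.56, 11.58, 11.65 and 11.59 in tumor, against 11.81, 11.94, 11.76 and 11.07 in nontumor liver. Nontumor array 4 lay below all tumor arrays while the other nontumor arrays lay above them, and the difference was -0.05 ± 0.17 (SE). The constitutive subunits Psmb5 and Psmb7 were not called, with differences of 0.09 and 0.02.

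Among the regulators and remaining induced genes, Trim25, the ligase that activates the RNA sensor RIG-I, rose by 0.71. Parp14, an ADP-ribosyltransferase, rose by 0.61 at its brighter probe set, while a dimmer probe set gave 0.18 and was not called. Parp9, which acts with the ligase DTX3L, differed by 0.22 and was not called. Rtp4, a receptor transporter protein, rose by 0.42 with the groups apart. Ifi27, a mitochondrial protein, read almost the same level in tumor (13.67 ± 0.03) and in nontumor liver (13.67 ± 0.11; SD, n = 4 each). Ifi44 and Ifi44l, which are neighbours on chromosome 2, differed by 0.44 and -0.39 and were not called; nontumor arrays ranged from 9.10 to 10.80 for Ifi44l.

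**Figure D3:**
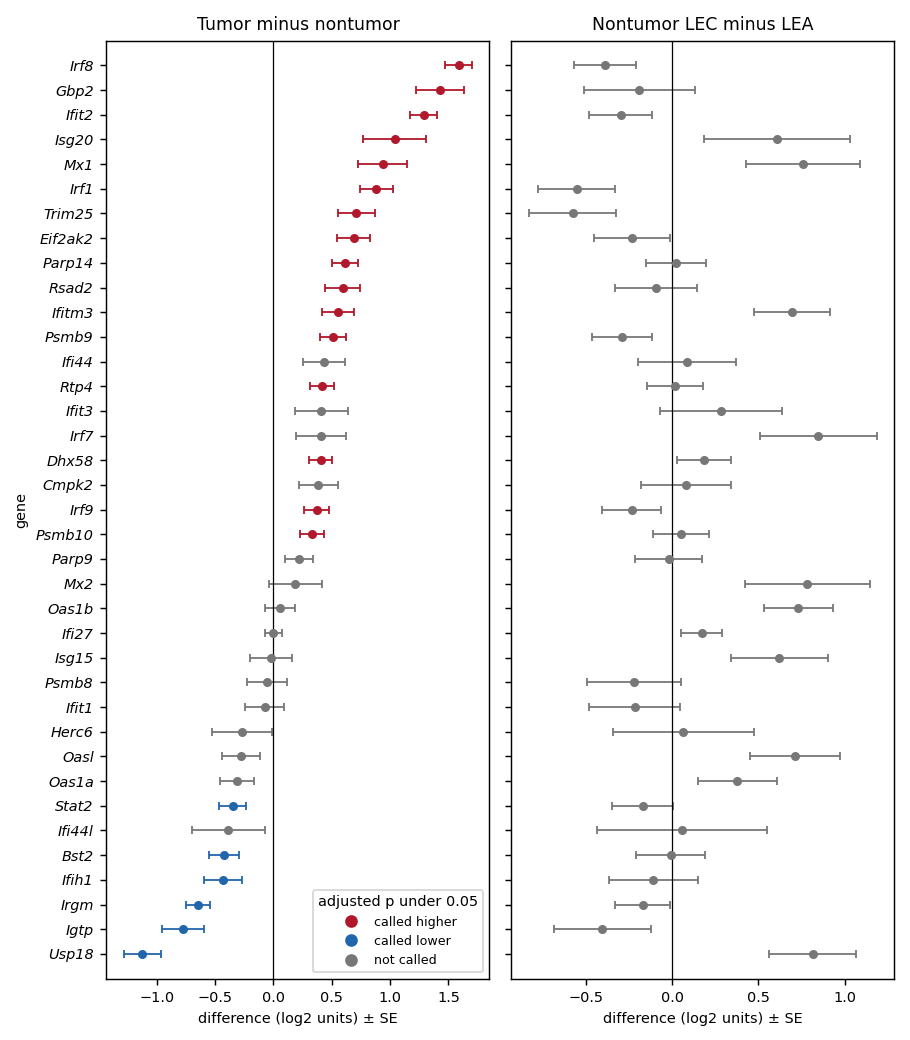
Difference in log2 units (x axis) ± SE for each of the 37 interferon response genes (rows, ordered by the left panel), for tumor minus nontumor liver at left and nontumor LEC minus LEA liver at right, with colour for an adjusted p under 0.05. In the left panel 16 genes are called higher and 6 lower, from 1.59 for Irf8 to -1.12 for Usp18, and in the right panel none is called.

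Some arrays were the highest or lowest of their group for many of the genes, and such counts were not made over all genes. Tumor arrays 3 and 4 were each the highest of the tumor arrays for 16 of the 37 genes, and tumor array 2 was the lowest for 18. Tumor array 3 was also the lowest for 10. Nontumor array 2 was the highest of its group for 20 genes and nontumor array 1 for 13, whereas nontumor arrays 3 and 4 were the lowest for 16 and 17. The mean level over the 37 genes ranged from 9.98 to 10.20 on tumor arrays and from 9.67 to 10.04 on nontumor arrays, so the groups overlapped in that mean.

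Genes upstream of the response were described from lists of the pathway. The counts of calls below stand beside the 38.8% of all genes called higher and the 29.2% called lower in tumor, and no difference between a list and all genes was tested. Of 8 measured interferons and receptors, 6 were higher in tumor and 2 were lower. The receptor chains rose, among them Ifngr2 (1.30) and Ifngr1 (1.18) of the interferon gamma receptor and Il10rb (0.87), which the type III receptor shares with other cytokines. Ifnar1 and Ifnar2 of the type I receptor rose by 0.22 and 0.38 with overlapping groups. Ifnlr1 of the type III receptor was called higher, but on 2 of the 4 nontumor arrays it did not exceed the bacterial probe level. With those arrays set to that level, the tumor arrays were at least 3.52-fold higher. Ifng and Ifnb1 were called lower, but Ifng lay below the bacterial probe level on all 12 arrays and no size is given for it. Ifnb1 averaged 5.96 ± 0.09 in tumor and 6.32 ± 0.13 in nontumor liver (SD, n = 4 each), a difference of -0.36. The brightest bacterial probe set differed by the same -0.36, with means of 5.59 in tumor and 5.95 in nontumor liver, so a fall of Ifnb1 cannot be told apart from that shift of the floor. Jak2, the kinase of the interferon gamma receptor, rose by 1.05, and the kinases Jak1 and Tyk2 were not called.

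Sensors and adaptors included 5 genes called higher and 2 called lower of 9 measured. Sting1, the adaptor for cytosolic DNA, rose by 1.92. Tlr7, an endosomal sensor of single-stranded RNA, was called higher on the values as read (limma adjusted p = 0.00012). It stayed under the bacterial probe level on all 4 nontumor arrays. Taking that level as the floor, Tlr7 was at least 2.39-fold higher in tumor, a difference that was not tested. The kinase Tbk1 and the factor Irf5 rose by 0.50 and 0.47, and the nucleic acid sensor Zbp1 rose by 0.34 with overlapping groups. Ticam1, the adaptor of TLR3, fell by 0.51 and the factor Irf3 by 0.21. Of 6 feedback inhibitors, the phosphatases Ptpn6 and Ptpn2, the SUMO ligase Pias1 and Socs3 were higher, by 0.33 to 0.55, and Socs1, an inhibitor of JAK kinases, was lower by 0.24.

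Of 9 antigen-processing partners, 8 were higher in tumor, none was lower and Psme1 was not called. Cd74, the invariant chain of MHC class II, rose by 2.25, the peptide transporter subunits Tap1 and Tap2 by 0.90 and 0.46, and B2m by 0.17. Of 29 further interferon-induced genes, 14 were higher and 8 were lower. The rises were led by Ifitm2 (2.38), the helicase Ddx60 (1.87), Epsti1 (1.46) and Plac8 (1.42). The falls included the T-cell chemoattractant Cxcl9 (-0.70), the coactivator Helz2 (-0.61), Lgals9 (-0.58), and Uba7 (-0.39) and Ube2l6 (-0.41), which activate and conjugate ISG15. Cxcl10, a chemokine of the same receptor as Cxcl9, rose by 0.69, and Cxcl11 was called lower, with a difference of -0.48. The groups overlapped for Cxcl9, Cxcl10, Cxcl11 and Ube2l6.

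**Figure D4:**
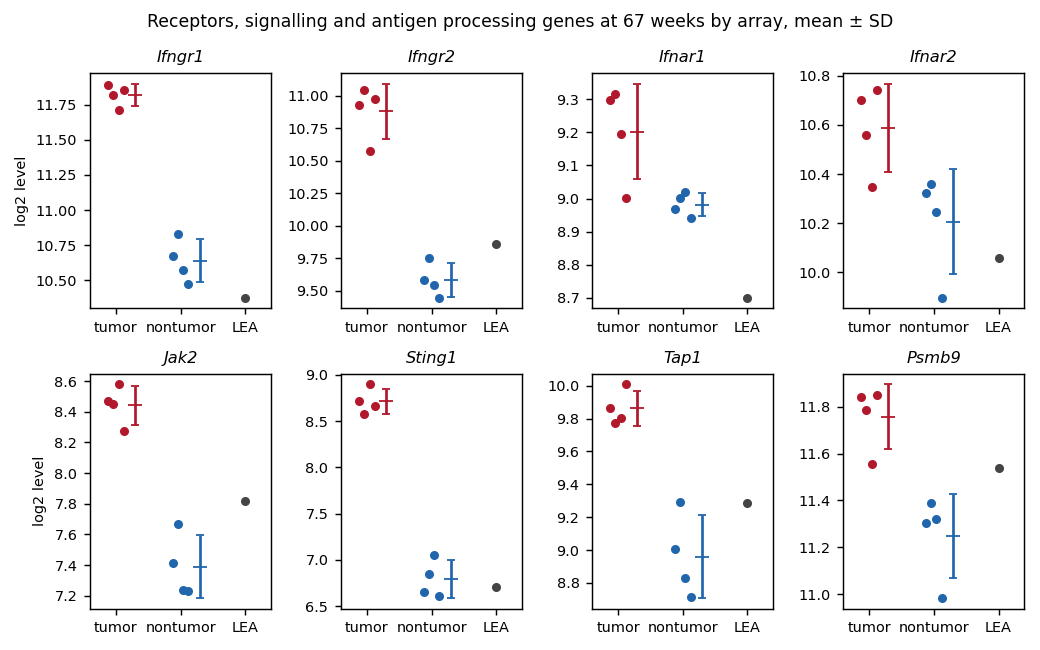
Log2 level (y axis) of 8 receptor, signalling and antigen-processing genes on the tumor, nontumor LEC and LEA arrays at 67 weeks, 1 point an array, with bars for mean ± SD of the 4 arrays. Ifngr1, Ifngr2, Jak2, Sting1, Tap1 and Psmb9 are higher on every tumor array than on any nontumor array, and Ifnar1 and Ifnar2 overlap.

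Markers of several cell types moved with the same comparison. Of 6 hepatocyte markers, 4 were lower in tumor and none was higher, and their mean level was 9.41 to 12.89 on tumor arrays, lowest on tumor array 4, against 13.35 to 13.60 on nontumor arrays. All 7 matrix and stellate cell markers and all 4 bile duct markers were higher. Among 6 macrophage markers Csf1r and Adgre1 were higher and the Kupffer cell markers Clec4f, Cd163 and Cd5l were lower, with a mean level of 8.72 to 9.58 in tumor and 10.08 to 10.86 in nontumor liver. Of 12 T, NK and B cell markers, 5 were higher and 3 lower, with a mean of 7.49 to 7.80 in tumor and 7.06 to 7.14 in nontumor liver. S100a8, S100a9 and Csf3r of 4 neutrophil markers and Clec9a of the 2 dendritic cell markers were higher, and of 4 endothelial markers Pecam1 was higher and 3 were lower. Apart from Klrd1 on the nontumor arrays, no marker was under the bacterial probe level throughout either group. The part of cell composition in the differences of the interferon response genes was not tested.

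Nontumor LEC liver compared with LEA liver of the same age addressed the diseased strain outside its tumors, with 4 arrays against 1. LEC and LEA liver differ in strain as well as in disease, so strain and disease cannot be told apart in any of these differences. None of the 37 genes was called by limma in either direction, where 0.232% of all genes were called higher and 0.331% lower. At an unadjusted p under 0.05, 6 were higher in nontumor LEC liver (Irf7, Mx1, Oas1b, Oasl, Ifitm3 and Usp18) and 2 were lower (Irf1 and Trim25), against 5.12% and 7.24% of all genes. The spread of LEA liver could not be measured from its lone array and was assumed to equal that of the replicated groups. The comparison shares the nontumor arrays with that of tumor and nontumor liver.

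The nontumor LEC minus LEA differences were largest for Irf7, at 0.85 ± 0.34 (SE), Usp18, at 0.82 ± 0.25, and Mx2, at 0.78 ± 0.36. Irf7 read 9.97 in LEA liver, Usp18 10.27 and Mx1 7.86, in each case below all 4 nontumor LEC arrays listed above. Isg15 at 10.13 in LEA liver was also below them. The LEA array lay below the nontumor range for 10 of the 37 genes (27.0%), which were those 4 with Mx2, Oas1a, Oas1b, Oasl, Ifitm3 and Ifi27, where 20.0% of all genes lay so. It lay above that range for 7 (18.9%), where 28.8% of all genes lay so: Irf1, Irf8, Irf9, Ifit2, Irgm, Psmb9 and Trim25. Of these, Irf8 read 9.11, Ifit2 10.29, Irf9 10.02 and Psmb9 11.54 in LEA liver. The remaining fully described genes read within the nontumor range in LEA liver, with 9.09 for Gbp2, 6.69 for Isg20, 8.79 for Rsad2, 9.04 for Ifit1, 7.35 for Ifit3, 10.40 for Stat2 and 11.87 for Psmb8.

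Cell type markers also differed in this comparison. Col1a1 and Col3a1 of the matrix and stellate cell list were called higher in nontumor LEC liver, by 2.10 and 1.36 (limma adjusted p = 0.0455 and 0.0369), and that list averaged 8.21 to 8.74 in nontumor LEC liver, against 7.44 in LEA liver. The bile duct list averaged 7.77 to 8.87 in nontumor LEC liver, against 7.19 in LEA liver, and the neutrophil list 8.03 to 8.39, against 7.63, with no member of either called. The LEA array lay within the nontumor range of the hepatocyte list, at 13.45, and of the macrophage list, at 10.48. It lay above that range for the T, NK and B cell list, at 7.24 against 7.06 to 7.14. It was also above it for the dendritic cell list, at 6.99 against 6.78 to 6.95, and barely so for the endothelial list, at 10.354 against 9.909 to 10.351. No member of these lists was called. The part of these markers in the values of the interferon response genes was not tested.

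Of the pathway genes, Lgals3bp, a secreted galectin-binding glycoprotein, was the single one called, at 1.60 ± 0.13 (SE) higher in nontumor LEC than in LEA liver (limma adjusted p = 0.00093). It averaged 12.49 ± 0.10 in tumor and 11.42 ± 0.10 in nontumor LEC liver (SD, n = 4 each), against 9.82 in LEA liver.

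The LEC pools at 4, 26 and 39 weeks and the nontumor arrays at 67 weeks formed an age series before and around tumor formation. With 1 array each, the 3 younger ages have no replicate check, and their values are descriptions. The pool at 4 weeks lay within the range of the nontumor arrays at 67 weeks for 20 of the 37 genes. It lay below that range for 16 (43.2%) and above it for 1 (2.7%), where 24.6% and 24.3% of all genes lay so. The pools at 26 and 39 weeks read low for many of the antiviral genes. Both of these pools lay below all other 10 arrays, tumor and LEA included, for 12 of the 37 genes (32.4%), against 1.53% of all genes. The 12 were Irf7, Irf9, Ifit1, Ifit2, Ifit3, Mx1, Mx2, Oas1a, Rsad2, Bst2, Isg15 and Psmb10. None of the 37 genes lay above all other arrays in both pools, where 4.87% of all genes did so. These are the same 2 arrays that stood apart in Xist and Eif2s3y, so age, pool and the difference in sex-linked transcripts cannot be told apart in this pattern.

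Ifit3 read 7.63 at 4 weeks, 6.44 at 26 weeks and 6.54 at 39 weeks, with nontumor values of 7.23 to 7.97 at 67 weeks. Isg15 read 10.55 at 4 weeks, 9.47 at 26 weeks and 9.49 at 39 weeks, with 10.48 to 11.14 at 67 weeks. Ifit1 read 8.77 at 4 weeks, 7.80 at 26 weeks and 7.82 at 39 weeks, with 8.50 to 9.26 at 67 weeks. In each of these genes the pools at 26 and 39 weeks were nearly alike and about 1 log2 unit under the youngest pool. Mx1 followed the same course, with 8.52 at 4 weeks, 7.58 at 26 weeks, 7.60 at 39 weeks and 8.38 to 8.81 at 67 weeks. Irf7 read 10.08 at 4 weeks, 9.53 at 26 weeks, 9.63 at 39 weeks and 10.54 to 11.02 at 67 weeks, so all 3 younger pools lay below the oldest arrays. Rsad2 read lower in each later pool, with 8.94 at 4 weeks, 8.11 at 26 weeks and 7.60 at 39 weeks, against 8.50 to 8.85 at 67 weeks.

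**Figure D5:**
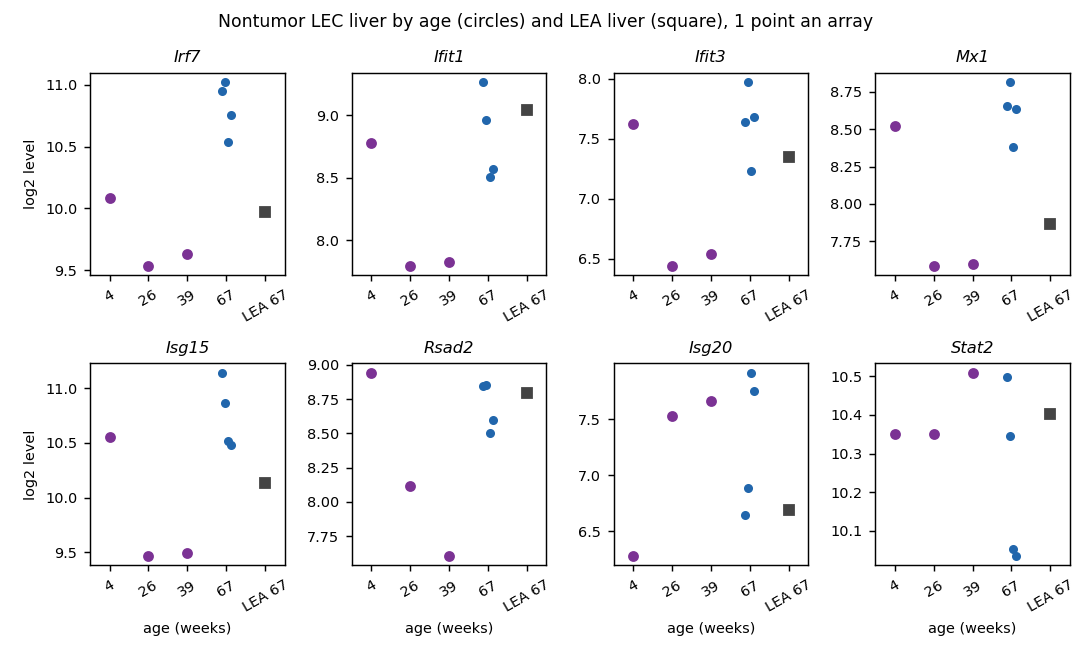
Log2 level (y axis) of 8 interferon response genes in nontumor LEC liver by age in weeks (circles, 1 array at 4, 26 and 39 weeks and 4 at 67 weeks) and in LEA liver at 67 weeks (square). Irf7, Ifit1, Ifit3, Mx1, Isg15 and Rsad2 are lowest at 26 or 39 weeks, Isg20 is lowest at 4 weeks (6.28), and Stat2 reads highest at 39 weeks (10.51).

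Other genes took a different course. Isg20 had the widest span, with 6.28 at 4 weeks, 7.53 at 26 weeks, 7.66 at 39 weeks and 6.65 to 7.91 at 67 weeks. Psmb9 read 10.71 at 4 weeks, 11.36 at 26 weeks and 11.43 at 39 weeks, and Psmb8 read 10.78, 11.02 and 11.34 at the same ages. Both subunits were thus lowest in the youngest pool, and at 67 weeks they ranged from 10.98 to 11.39 and from 11.07 to 11.94. Stat2 read 10.35 at 4 weeks, 10.35 at 26 weeks and 10.51 at 39 weeks, and Irf9 read 9.76, 9.36 and 9.54. Usp18 was level over the 3 pools, at 10.37, 10.35 and 10.37, and lay below all 4 arrays of 67 weeks. Gbp2 was level as well, at 9.18, 9.11 and 9.15, within the range at 67 weeks. Irf8 read 8.55 at 4 weeks, 8.92 at 26 weeks and 9.10 at 39 weeks, whereas Ifit2 read 9.56, 9.48 and 9.22.

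Against the nontumor arrays at 67 weeks, the youngest pool lay below their range for 16 genes (43.2%) and above it for Rsad2, where 24.6% and 24.3% of all genes lay so. At 26 weeks 22 genes lay below (59.5%) and Trim25 lay above, where 18.9% and 29.0% of all genes lay so. At 39 weeks 23 genes lay below (62.2%) and Irf8, Stat2 and Psmb9 lay above, where 13.3% and 32.3% of all genes lay so. Rtp4 was below the range at every younger age by 0.90 to 1.01 log2 units under the nontumor mean. By the size of the difference between single pools, Ifit3 and Isg15 were lower by at least 1 log2 unit at 26 than at 4 weeks, where 0.563% of all genes were, and Ifit3, Rsad2 and Isg15 at 39 than at 4 weeks, where 0.549% were. Isg20 was higher by that much in both, where 2.57% and 2.51% of all genes were. Over these pools the hepatocyte marker list averaged 13.55 at 4 weeks, 13.49 at 26 weeks and 13.61 at 39 weeks, and the T, NK and B cell list 7.02, 6.98 and 7.03. The macrophage list averaged 9.85, 10.18 and 10.05 and the bile duct list 7.51, 8.53 and 8.71 at the same ages. The neutrophil list averaged 6.45, 6.62 and 6.53 at these ages, below the 8.03 to 8.39 of the nontumor arrays at 67 weeks. The matrix and stellate cell list averaged 8.55, 8.84 and 8.79, against 8.21 to 8.74 at 67 weeks. At 67 weeks the nontumor arrays averaged 7.06 to 7.14 for the T, NK and B cell list, above all 3 younger pools. For the macrophage list they averaged 10.08 to 10.86, above the pools at 4 and 39 weeks. The dendritic cell list averaged 7.06, 7.10 and 7.12 at the younger ages, against 6.78 to 6.95 at 67 weeks. The endothelial list averaged 10.44, 10.27 and 10.22, against 9.91 to 10.35. Several marker lists thus differed between the younger pools and 67 weeks, in both directions. The part of these markers in the levels of the interferon response genes was not tested.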

How the data were processed

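The values analysed are log2 intensities deposited by the authors. The submitters' processing notes name RMA and R 2.6.1; whether all 12 arrays were normalized together is not given in the sources used here. RMA corrects background, normalizes by quantiles and summarizes probes, so changes shared by most probe sets are removed and low levels are compressed. Per the labels, 3 µg of RNA was labelled for an array. Precision is limited by the number of arrays. The rule for the members uses no measured value, but members and gene lists were proposed with earlier results of these data known.

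The table held 31099 probe sets, among them 57 controls that were not tested. Of the 31042 tested, 20826 were annotated with a single gene, 436 with several and 9780 with no gene listed here. The highest-mean probe set represented a gene, giving 14217 genes. Group means of all 12 arrays were fitted with limma 3.58.1 (lmFit, eBayes) in R 4.3.3, with 6 residual and 2.84 prior degrees of freedom, and two-sided p-values received Benjamini-Hochberg adjustment across all 31042 probe sets, with calls at 0.05. The fit was tested on simulated data. Lone arrays add nothing to the spread. Probe sets of the x and a kinds (Dhx58, Oas1a, Ifitm3) can match several transcripts, and family members with like sequence may share signal.

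Each measured gene is named. Values on every array are given for genes called in tumor by at least 1 log2 unit, for the 5 with the widest span over the younger pools (Isg20, Rsad2, Ifit3, Isg15 and Ifit1) and for Irf7, Irf9, Stat2, Isg15, Mx1, Psmb8 and Psmb9. Sex-linked and bacterial probe sets were looked at after the data were seen. Alternatives were a further quantile normalization, median subtraction, array weights, a trended robust prior, removal of dim probe sets, averaging of a gene's probe sets, a 1 log2 threshold, the title number as a block, leaving out each replicate and, added after seeing the data, leaving out the arrays of 26 and 39 weeks. Python 3.11.15 with matplotlib 3.10.9 drew the figures.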

Additional observations from a re-analysis of the deposited data

Results flagged for a closer look

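For 3 genes a single tumor array stood apart from the other 3 by Dixon's criterion on the gap over the range, which chance meets in about 1 in 20 groups. Over the 37 genes and both replicated groups, 74 groups were examined. Ifit2 read 11.50 on tumor array 4, where the next highest tumor array read 11.23. Mx2 read 11.04 on tumor array 4, where the next highest read 10.44. Ifitm3 read 13.54 on tumor array 3, where the next lowest read 13.79.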

How the results depend on the processing

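Directions of the 22 genes called in tumor against nontumor liver held under all alternatives. The count higher, 16, ran from 11 to 17 and was 15 to 17 with each replicate left out; the count lower, 6, was 4 to 8 with each replicate left out and 10 with array weights. Requiring 1 log2 unit as well left 4 higher and 1 lower. A further quantile normalization moved the median of all genes by -0.10 and gave 11 higher and 8 lower members (57.9% of calls higher, against 72.7%), with 30.8% and 33.9% of all genes; Irf9, Dhx58, Rsad2, Psmb10 and Rtp4 lost their calls and Oas1a and Oasl gained them. Median subtraction also moved that median by -0.10, giving 14 and 7. Leaving out a single array ended the call of Ifih1 in 5 cases, Stat2 in 3 (tumor 1, tumor 2 or nontumor 2) and Psmb10 in 2. It added a call for Cmpk2 (higher, without tumor 2 or nontumor 4), Parp9 (higher, without nontumor 1), Ifi44 (higher, without nontumor 2), Oas1a and Oasl (lower, without nontumor 3) and Psmb8 and Ifi44l (lower, without nontumor 4). Stat2 was not called on the mean of its probe sets. Same-numbered tumor and nontumor arrays correlated at 0.05, 0.14, -0.08 and 0.14 in their deviations, so the numbers were not taken as pairs; with the replicate block 17 members were higher and 6 lower. Without the arrays labelled 26 and 39 weeks the counts were 16 and 6. Leaving out these lone arrays could not change either comparison, since they add nothing to the spread, so it is no check. In nontumor LEC against LEA liver, 0 members were called under every alternative run; the replicate block could not be run there, since LEA has 1 array.

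Signs turned only for differences that were not called. In tumor minus nontumor these were Mx2 (-0.034 with quantile normalization or array weights) and Oas1b (-0.047 with median subtraction, -0.024 with array weights). With each replicate left out the ranges were Ifit1 -0.18 to 0.070, Oas1b -0.059 to 0.13, Isg15 -0.12 to 0.11, Psmb8 -0.24 to 0.046, Ifi27 -0.032 to 0.043. In nontumor LEC minus LEA they were Ifih1 (0.014 with array weights), Cmpk2 (-0.025 with array weights, -0.11 with means over probe sets), Bst2 (0.088 with quantile normalization, 0.0070 with median subtraction, 0.055 with array weights) and Parp9 (0.080 with quantile normalization or array weights). With each replicate left out the ranges were Ifih1 -0.21 to 0.014, Cmpk2 -0.048 to 0.16, Bst2 -0.074 to 0.051, Herc6 -0.11 to 0.25, Psmb10 -0.023 to 0.11, Parp9 -0.11 to 0.061, Parp14 -0.049 to 0.12, Ifi44 -0.069 to 0.25, Ifi44l -0.21 to 0.36, Rtp4 -0.044 to 0.067. The cause of these changes was not tested.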
